A study of Mus musculus with 106 samples.

Results

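The response of the liver transcriptome to a high-fat diet was measured in female mice of PWK/PhJ, a wild-derived inbred strain. The comparison set 3 female (f) livers on the high-fat diet (HFD) against 3 on control chow (CD), 1 library per mouse, so 6 of the 106 liver libraries of the series, over all 14330 genes of the deposited count table. The series holds females and males (m) of 9 inbred strains, in 36 groups of strain, sex and diet. Each group had 3 mice, except that 1 group of another strain had 1. Mice of all groups received their diet from 8 weeks of age and livers were taken at 21 weeks. Of the energy in chow, 6% came from fat, 20% from protein and 74% from carbohydrate, against 60%, 20% and 20% in the high-fat diet. No group carried a transgene or received a further treatment according to the labels, and livers were perfused with saline and freed of the gallbladder before RNA was taken. PWK/PhJ males (3 on each diet) and the females of the 8 other strains, 129S1/SvImJ, A/J, C57BL/6J, CAST/EiJ, DBA/2J, NOD/ShiLtJ, NZO/HlLtJ and WSB/EiJ (3 on each diet per strain), served as comparisons, and none of their libraries were shared with the PWK/PhJ females. An inbred strain is 1 genotype, so the results describe that genotype. Within the strain and sex, animal numbers of the diets lay in separate ranges. The labels speak of several cohorts without saying which mouse belonged to which, so diet and any cohort that follows those ranges cannot be told apart.

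Liver cells answer dietary fat through several routes. Fatty acids are burned under the control of the nuclear receptor PPARalpha, or are stored as triglyceride in lipid droplets coated with perilipins and CIDE proteins, while SREBP-1c and ChREBP drive synthesis of new fatty acids from carbohydrate. Besides hepatocytes, a perfused liver contains Kupffer cells, sinusoidal endothelium, stellate cells and lymphocytes. In mouse liver, long feeding with a fatty diet is commonly described with triglyceride storage, macrophage recruitment and deposition of collagen.

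Gene counts summed to between 54115561 and 57485927 in the high-fat libraries and between 45264209 and 50111380 in the chow libraries, with no overlap (exact two-sided permutation p = 0.1, the smallest that 3 against 3 allows). Levels are given as CPM, which are gene counts scaled to a common library total with TMM factors, and changes as log2 fold changes with their standard error (SE). The chow library 2 stood apart, with correlations of 0.98163 and 0.9813 with the other chow libraries, which correlated at 0.98951 with each other. The first principal component of the 6 libraries held 59.3% of their variance and separated the diets. Several genes named here overlap another gene in the annotation, such as Irf7 with Phrf1, Srebf1 with Rai1, Prtn3 with Plppr3 and Oat with Fgfr2, and whether strand was used in counting is not given in the sources used here. None of 9 hepatocyte markers passed the test, and their summed level was 109500 to 116600 CPM on the high-fat diet and 126000 to 143200 CPM on chow, while their median change was 0.19, with 2 members higher and 2 lower without overlap.

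Of 14330 genes, 2392 (16.7%) differed between diets at an adjusted p under 0.05. High-fat livers had higher levels of 1308 genes (9.13%) and lower levels of 1084 (7.56%) (edgeR quasi-likelihood test, Benjamini-Hochberg adjustment over all genes). The median size of the called changes was 0.81 on the log2 scale, and 890 genes changed by at least 1, of which 658 rose and 232 fell. For 2277 of the called genes the 3 high-fat and the 3 chow libraries did not overlap, while 36.6% of all genes showed no overlap, 18.2% with the high-fat libraries higher and 18.4% with them lower. Genes of neutrophils and immunoglobulin were prominent among the largest rises, and Cidec, Acot5, Cyp4a14 and Ren1 were among the largest falls. Leaving out chow library 2 gave 1162 called genes and leaving out high-fat library 1 gave 1328. The split between directions moved as well. Total count scaling gave 1316 higher and 822 lower, and leaving out high-fat library 2 gave 1109 and 640.

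**Figure D1:**
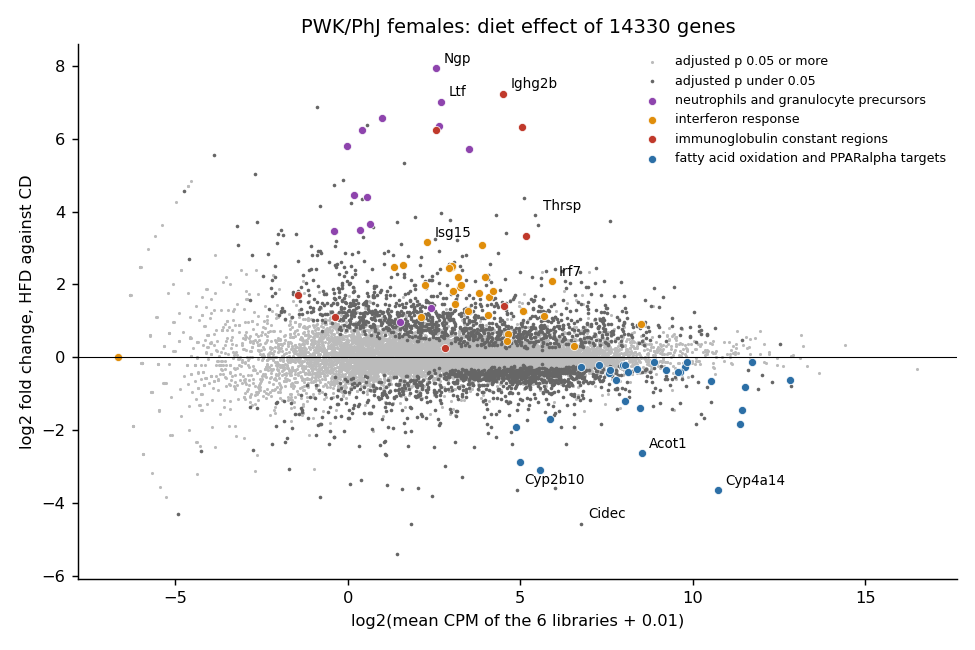
Diet effect (log2 fold change, high-fat against chow, vertical axis) against the mean level (log2 of the mean CPM plus 0.01, horizontal axis) of 14330 genes in PWK/PhJ females, with members of 4 gene lists coloured. Neutrophil and immunoglobulin genes lie at the top among low to moderate levels, and members of the fatty acid oxidation list lie below 0 at high levels, with Cyp4a14 at -3.65 and Cidec, a droplet gene, at -4.56.

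Apart from predicted genes with no name of their own, Cidec fell most among called genes whose groups did not overlap. It encodes a protein that fuses lipid droplets and promotes triglyceride storage, and stood at 174, 300.3 and 149.5 CPM in the 3 chow livers and at 9.44, 6.72 and 10.2 CPM in the 3 high-fat livers. Every high-fat liver lay far under every chow liver, with a change of -4.56 ± 0.73 (SE, adjusted p = 4.08e-06). The droplet coat gene Plin2 fell from 1816 ± 685 to 618 ± 31.0 CPM (SD, n = 3 each; adjusted p = 0.00202). Pnpla2, the first lipase of stored triglyceride, fell from 253 ± 128 to 70.7 ± 7.30 CPM (adjusted p = 2.93e-05). Fitm2, which supports droplet formation at the endoplasmic reticulum, fell from 116 ± 14.6 to 46.9 ± 1.75 CPM (adjusted p = 1.64e-06). Going the other way, Pnpla3, a lipase homologue of the droplet surface, measured 0.585, 0.161 and 1.02 CPM on chow against 3.19, 3.67 and 3.68 CPM with high fat, a change of 2.56 ± 0.44 (adjusted p = 1.57e-05). Dgat2, which completes triglyceride synthesis, also rose, by 0.58 ± 0.18 (adjusted p = 0.0193), whereas its isozyme gene Dgat1 fell by 0.70 ± 0.17 (adjusted p = 0.00167). Of 22 genes of droplets and triglyceride storage, 8 fell and 2 rose, with a median change of -0.37 beside -0.02 over all genes. The median was -0.17 with 6 falls without chow library 2, and -0.21 without high-fat library 2. Fewer cells of a type and less RNA per cell cannot be told apart in these whole-liver libraries.

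Genes of fatty acid oxidation and other PPARalpha targets fell, and none rose: 11 of 29 measured members were lower and the median change was -0.43. Cyp4a14, a microsomal enzyme that hydroxylates the end of fatty acids, measured 2363, 4944 and 2108 CPM on chow against 164, 295 and 290.2 CPM with high fat. That is a 12.6-fold difference of the means and a change of -3.65 ± 0.50 (adjusted p = 1.58e-07), with no overlap. Ehhadh, of peroxisomal oxidation, fell from 4093 ± 1622 to 1163 ± 221 CPM (adjusted p = 0.000113). Some acyl-CoA thioesterases, which split fatty acids from coenzyme A, were among the falls. The cytosolic Acot1 went from 542, 768 and 585 CPM to 102, 115 and 90.1 CPM (adjusted p = 5.2e-06), and the mitochondrial Acot2 from 84.3 ± 52.9 to 9.86 ± 0.474 CPM (adjusted p = 7.07e-06). Acot3 and Acot5, of peroxisomes, changed by -1.91 ± 0.60 (adjusted p = 0.0203, and up to 0.08955 among the alternatives) and -3.84 ± 0.50 (adjusted p = 6.14e-08). These genes are near-identical neighbours and reads could be split among them in ways the files do not show. Cpt1a, the gate enzyme of mitochondrial oxidation, measured 938, 864 and 1024 CPM on chow against 788, 835 and 748 CPM, a change of -0.25 ± 0.20 that did not pass (adjusted p = 0.448), while Cpt2 fell by 0.62 ± 0.17 (adjusted p = 0.00687).

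Chow library 2 held the highest level of several of these genes, including Cyp4a14 and Plin2. Pdk4, a kinase that shuts off pyruvate oxidation, stood at 124 CPM in it and at 21.1 and 21.9 CPM in the other chow livers, against 7.26, 10.8 and 4.86 CPM on the high-fat diet. Its change of -2.86 ± 0.75 (adjusted p = 0.00455) did not pass without chow library 2 (adjusted p = 0.2324). Fgf21, a liver hormone, measured 51.8, 88.7 and 128 CPM on chow against 17.2, 47.7 and 17.7 CPM with high fat (adjusted p = 0.111).

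**Figure D2:**
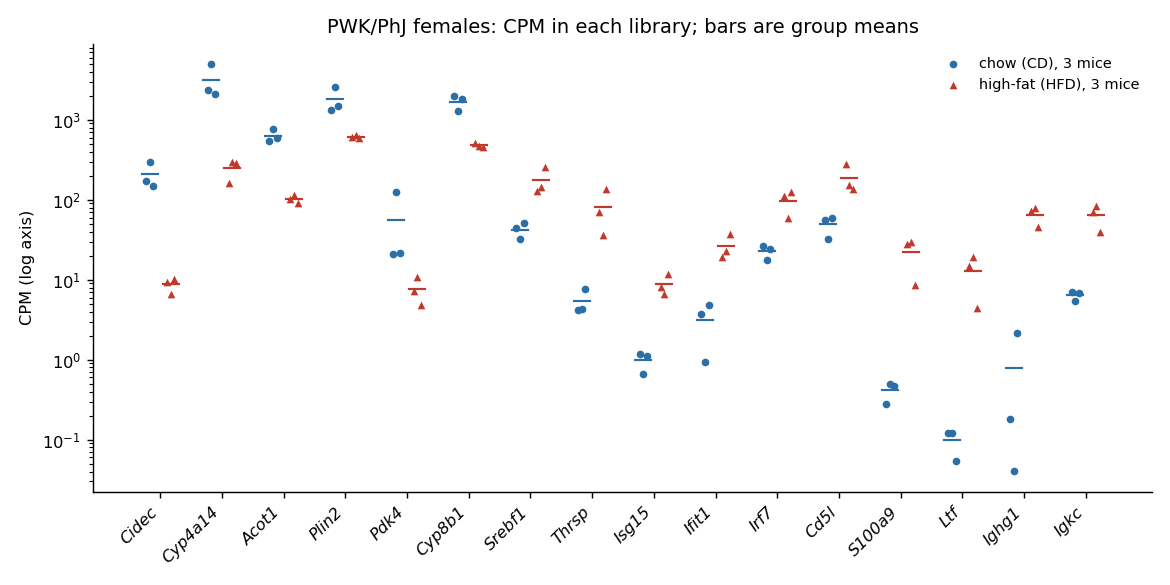
CPM (log axis) of 16 genes in each of the 6 PWK/PhJ female libraries, 3 on chow (circles) and 3 on the high-fat diet (triangles), with bars at the group means. Every gene shown has all high-fat libraries on the same side of all chow libraries, from Cidec, lower by 23.7-fold in the means, to Ltf, at 4.38 to 19.4 CPM against 0.0549 to 0.121 CPM.

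Of 20 genes of fatty acid synthesis 4 rose and 2 fell, beside 9.13% and 7.56% of all genes, with a median of 0.09. Thrsp, which encodes the lipogenic protein Spot 14, went from 4.24, 4.36 and 7.66 CPM to 70.4, 36.1 and 137 CPM, a change of 3.90 ± 0.60 (adjusted p = 1.81e-06). Srebf1, the gene of SREBP-1c, went from 43.8, 32.1 and 51.0 CPM to 129, 143 and 257 CPM (adjusted p = 4.9e-05). Both separated the diets completely. Mlxipl, the gene of ChREBP, changed by 0.99 ± 0.22 (adjusted p = 0.000694) and Pparg, a receptor that promotes fat storage, by 1.27 ± 0.41 from a level under 2 CPM on chow (adjusted p = 0.0216, and 0.2129 without chow library 2). Fasn, the fatty acid synthase, measured 159.6, 106 and 152 CPM on chow against 137, 110.5 and 201 CPM with high fat, a change of 0.10 ± 0.34 (adjusted p = 0.888). Scd1, the main desaturase, varied from 525 to 2402 CPM on chow and lay at 1190 to 1482 CPM on the high-fat diet (adjusted p = 0.967). Acacb, whose product restrains mitochondrial oxidation, fell from 115 ± 17.8 to 30.4 ± 3.29 CPM (adjusted p = 4.26e-05), and Me1, which supplies reducing power, fell by 0.70 ± 0.25 (adjusted p = 0.0381).

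In the cholesterol synthesis list 8 of 25 genes fell and 1 rose, with a median of -0.28. Hsd17b7, a late-pathway reductase, fell from 79.6 ± 18.7 to 33.0 ± 7.62 CPM (adjusted p = 4.43e-05), and Dhcr7 and Cyp51 fell by 1.22 ± 0.28 (adjusted p = 0.00127) and 1.27 ± 0.36 (adjusted p = 0.0104). The member that rose was Acat2, the thiolase at the start of the pathway (0.83 ± 0.25, adjusted p = 0.0167). Without high-fat library 1 neither Acat2 nor Cyp51 passed (adjusted p = 0.1173 and 0.06097). Leaving out 1 library at a time left 2 to 6 members that fell.

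Of 21 bile acid genes 4 fell and 3 rose, beside 7.56% and 9.13% of all genes. Without chow library 2, 1 rose, and with the PWK/PhJ females or the strain's libraries fitted alone 6 did. Cyp8b1, the enzyme that makes cholic acid, measured 1968, 1297 and 1811 CPM on chow against 514, 474 and 454 CPM with high fat, a fall of 3.52-fold in the means (adjusted p = 2.46e-05). Cyp39a1, which hydroxylates an oxysterol, fell by 2.45 ± 0.39 (adjusted p = 3.18e-06), and the export pump gene Abcc4 by 1.54 ± 0.34 (adjusted p = 0.000869). Abcb11, the bile salt export pump, rose from 266 ± 16.2 to 524 ± 63.4 CPM (adjusted p = 0.00136). Cyp7a1, the rate-limiting enzyme, ranged from 0.1004 to 40.6 CPM within the chow group alone and from 19.1 to 35.6 CPM on the high-fat diet (adjusted p = 0.751). Among 23 genes of lipoproteins and fatty acid uptake 4 fell and 2 rose, beside 7.56% and 9.13% of all genes. When any library other than chow library 1 was left out, 2 fell, where those fits called 481 to 887 genes lower in all. Mttp, which loads lipid onto apolipoprotein B, fell from 606 ± 56.4 to 312 ± 18.3 CPM (adjusted p = 9.55e-07), and the fatty acid transporter Slc27a4 fell by 0.69 ± 0.14 (adjusted p = 0.000315). The hepatic lipase gene Lipc and the HDL receptor gene Scarb1 rose by 1.06 ± 0.20 (adjusted p = 8.94e-05) and 0.89 ± 0.20 (adjusted p = 0.000752). Cd36, a fatty acid receptor, measured 184 to 263 CPM on chow against 192 to 210.1 CPM with high fat (adjusted p = 0.763).

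Neutrophil genes were among the largest rises. Of 14 markers of neutrophils and their precursors 13 rose, with a median of 5.08, and the 14 summed to 6.799, 4.477 and 8.319 CPM in the chow livers and 106.7, 126.7 and 38.81 CPM in the high-fat livers. Ngp, a granule protein, had 7 counts in all over the 3 chow libraries and 2136 over the 3 high-fat libraries, a ratio of 261.2 with a 95% counting interval of 126.5 to 650.4. Ltf, lactoferrin of secondary granules, stood at 0.121, 0.120 and 0.0549 CPM on chow, and at 15.0, 19.4 and 4.38 CPM with high fat (7.01 ± 0.95, adjusted p = 1.14e-07). S100a9, a subunit of calprotectin, went from 0.420 ± 0.120 to 22.2 ± 11.9 CPM (adjusted p = 1.81e-06) and its partner S100a8 from 0.146 ± 0.0816 to 12.3 ± 6.66 CPM (adjusted p = 8.78e-08). High-fat library 3 was the lowest of its group for each of these genes and still lay above every chow library. Primary granule genes made early in the bone marrow were among the rises: Mpo, myeloperoxidase, changed by 4.404 ± 0.89 (adjusted p = 0.000239), Elane, neutrophil elastase, by 4.45 ± 0.80 (adjusted p = 4.05e-05), and Prtn3 had a ratio of 82.33 (35.04 to 254.7). Ly6g, a surface marker of mature neutrophils, was the member that did not pass (2.92, 0.863 and 2.03 CPM against 3.91, 4.25 and 3.25 CPM, adjusted p = 0.198). Acod1, which makes itaconate in activated myeloid cells, had 1 count on chow and 189 on the high-fat diet, a ratio of 161.8 (28.68 to 6422).

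Immunoglobulin transcripts rose with them. Ighg2b measured 0.323, 0.161 and 0.402 CPM on chow against 31.9, 82.6 and 20.3 CPM with high fat, a change of 7.23 ± 0.70 (adjusted p = 5.64e-12). Ighg1 measured 0.182, 0.0401 and 2.18 CPM against 71.4, 79.0 and 45.5 CPM (adjusted p = 8.78e-08). The constant kappa chain Igkc went from 6.47 ± 0.881 to 64.7 ± 23.1 CPM (adjusted p = 8.78e-08). Of 8 constant region genes 5 rose, with a median of 2.51. The Ighg genes are near-identical in sequence and their separate levels are uncertain. Igha, of mucosal antibody, did not pass (8.70, 2.05 and 8.34 CPM against 7.76, 10.5 and 4.69 CPM, adjusted p = 0.791), and Ighm rose (1.40 ± 0.46, adjusted p = 0.024) with overlapping groups, since high-fat library 1 stood at 64.6 CPM and the others at 13.0 and 22.02 CPM. Markers of B cells and plasma cells moved the same way, with 9 of 11 higher and a median of 1.52: Jchain, which joins antibody polymers, rose from 2.52 ± 0.658 to 17.4 ± 6.24 CPM (adjusted p = 2.26e-06) and the B cell receptor Cd22 from 0.548 ± 0.165 to 2.35 ± 0.606 CPM (adjusted p = 7.05e-06). The summed level of the list overlapped between diets, at 301.1 to 373.0 CPM with high fat and 297.9 to 363.7 CPM on chow. Without chow library 2, 3 of these 11 passed, and with low genes left out 2 were tested and 0 passed. None of 10 T and NK cell markers passed, with a median of 0.75 and a summed level of 10.41 to 14.32 CPM against 5.488 to 8.633 CPM. No tested lymphocyte or neutrophil member was at 0 in all 3 libraries of a PWK/PhJ female group. Erythroid markers gave 0 of 8 called, with a median of 0.43, and of 0.13 to 1.17 when 1 library was left out. Their sums of 48.25 to 126.2 CPM on the high-fat diet and 33.49 to 109.2 CPM on chow overlapped. Whether remaining blood contributed was not tested, nor was the part of blood and immune cells in the other changes.

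**Figure D3:**
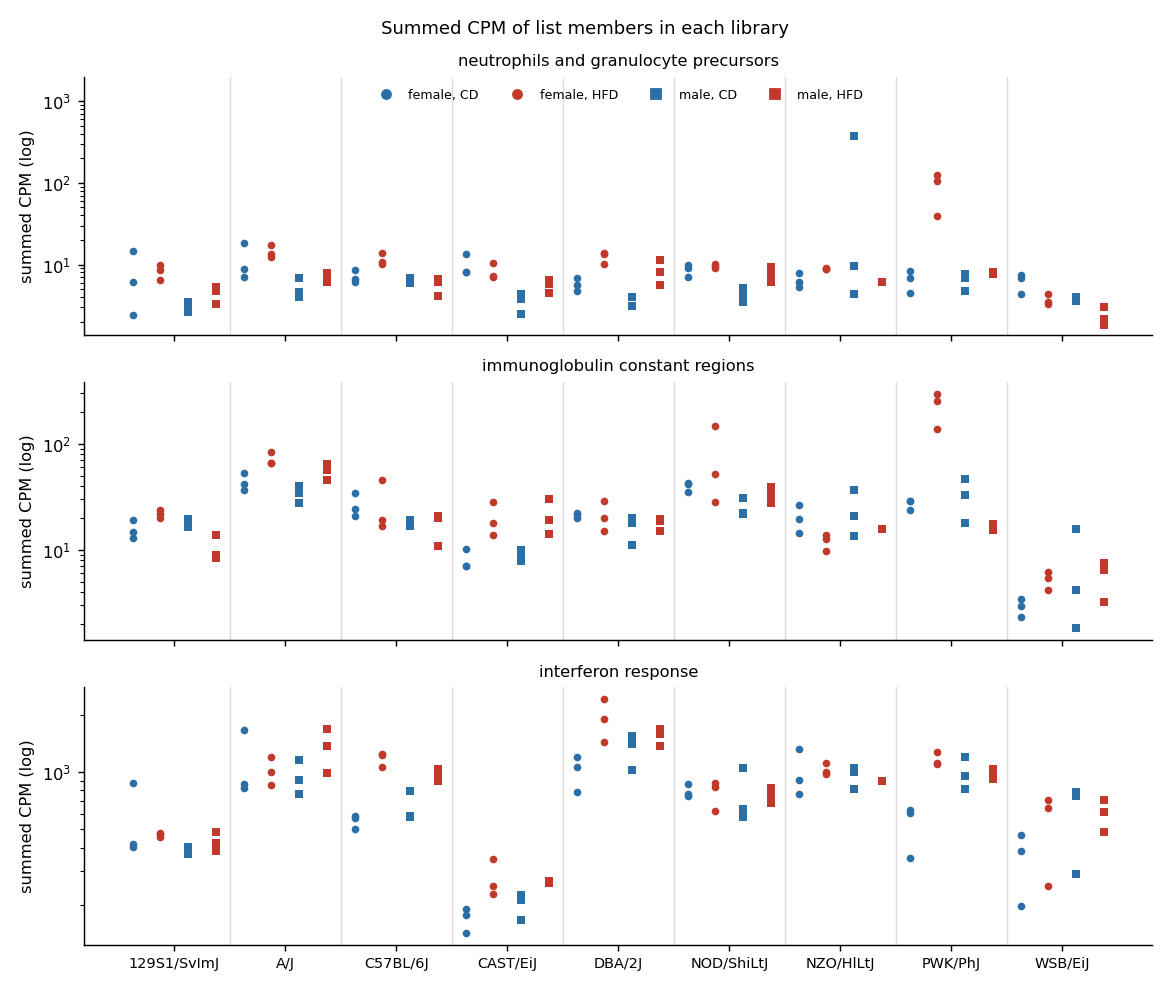
Summed CPM (log axis) of the members of 3 gene lists in each of 106 libraries, by strain, sex (circles female, squares male) and diet (blue chow, red high-fat). The PWK/PhJ high-fat females reach 38.81 to 126.7 CPM for neutrophil genes and 136.7 to 294.8 CPM for immunoglobulin constant regions, while 19 of the other 103 libraries exceed their lowest interferon response sum.

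For neutrophil genes, 1 of the other 103 libraries exceeded the lowest PWK/PhJ high-fat female: an NZO/HlLtJ male on chow at 378.3 CPM. For immunoglobulin constant regions it was also 1 library, an NOD/ShiLtJ female on the high-fat diet at 147.1 CPM. The median of the other 103 was 6.734 CPM and 19.36 CPM for these lists. Without each of the 6 libraries in turn, 13 neutrophil genes and 4 to 5 immunoglobulin genes passed. With low genes left out, 1 neutrophil gene (1.37) and 2 immunoglobulin genes were tested, and these passed.

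Interferon-stimulated genes rose as a group: 22 of 28 were higher and none lower, with a median of 1.83. Isg15, a ubiquitin-like antiviral modifier, stood at 1.17, 0.662 and 1.11 CPM on chow, and at 8.18, 6.56 and 11.9 CPM with high fat (3.17 ± 0.48, adjusted p = 1.58e-06). Irf7, the transcription factor that amplifies interferon production, went from 26.6, 17.9 and 24.6 CPM to 110.0, 58.6 and 124 CPM (adjusted p = 5.91e-06). Oas2, a sensor of double-stranded RNA, rose from 2.40 ± 0.865 to 13.8 ± 3.39 CPM (adjusted p = 1.72e-08), and Ifit2, which blocks translation of foreign RNA, from 2.34 ± 1.29 to 13.0 ± 1.37 CPM (adjusted p = 4.07e-07). The 28 genes summed to 351.6 to 632.2 CPM on chow against 1097 to 1266 CPM with high fat. Stat2, a transducer of the interferon signal, measured 92.2, 62.8 and 97.5 CPM against 98.8, 106 and 106 CPM (adjusted p = 0.523), and Ifi27l2a had no count in any library of the strain. Without chow library 2, 15 members passed.

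The promoters of these genes are shown because the members rose together. The interferon-stimulated response element was searched as GAAA, any 2 bases and GAAA again on both strands, with overlapping matches counted, in windows from 250 bases before to 50 after each start in RefSeq (GRCm38.p6). It was found for 13 of 22 interferon list genes that had windows, against 3.99% of 27025 genes with windows. It was 1 of 7 motifs searched, after looser forms of several had also been tried. Matches are letters of the C57BL/6J reference and not of PWK/PhJ, and are not shown to be bound. In the 150 bases before the start of 4 genes that rose, written 5′ to 3′ along the gene with matches on either strand in capitals, the sequences were:
Isg15, chr4:156200819-156200968, minus strand: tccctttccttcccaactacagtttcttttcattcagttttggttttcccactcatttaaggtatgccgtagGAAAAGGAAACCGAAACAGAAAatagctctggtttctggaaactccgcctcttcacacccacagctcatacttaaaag
Ifit3, chr19:34583379-34583528, plus strand: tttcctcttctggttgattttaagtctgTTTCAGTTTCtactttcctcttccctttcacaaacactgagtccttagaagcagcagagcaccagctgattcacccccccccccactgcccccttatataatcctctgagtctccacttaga
Oas1a, chr5:120907526-120907675, minus strand: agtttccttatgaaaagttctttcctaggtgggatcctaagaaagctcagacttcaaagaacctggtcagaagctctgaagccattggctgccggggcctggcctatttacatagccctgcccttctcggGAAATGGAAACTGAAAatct
Gbp7, chr3:142530186-142530335, plus strand: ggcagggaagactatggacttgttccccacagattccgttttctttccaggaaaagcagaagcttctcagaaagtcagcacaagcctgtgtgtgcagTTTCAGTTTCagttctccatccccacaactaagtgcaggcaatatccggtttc
Isg15 holds 3 overlapping matches, Oas1a holds 2, and Ifit3 and Gbp7 hold 1 each. Their changes were 3.17 ± 0.48 for Isg15, 2.47 ± 0.53 for Ifit3, 1.98 ± 0.38 for Oas1a and 1.82 ± 0.38 for Gbp7, and each passed (adjusted p = 1.58e-06, 0.00054, 9.62e-05 and 0.000375). A C/EBP motif, TTGCNNAA, was in the windows of 12 of 19 acute phase genes and 6 of 13 neutrophil genes, against 12.2% of all genes with windows. The PPARalpha element, written as AGGTCA repeated after 1 free base, was in none of 21 windows of the fatty acid oxidation list and in those of 0.0481% of all genes.

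Macrophage markers rose: 15 of 24, with a median of 0.96 and none lower. Cd5l, a secreted protein of Kupffer cells, went from 55.7, 32.4 and 59.9 CPM to 280.1, 153 and 136 CPM (adjusted p = 2.51e-06). Mpeg1, a pore-forming protein of phagocytes, rose from 76.1 ± 12.2 to 249 ± 58.3 CPM (adjusted p = 1.2e-05) and Adgre1, the F4/80 antigen, from 7.24 ± 0.580 to 18.7 ± 6.87 CPM (adjusted p = 0.000435). The summed level was 935.2 to 1583 CPM against 520.9 to 603.8 CPM, with high-fat library 1 the highest. Without that library 8 of the 24 passed. In the MHC class II list, which serves antigen presentation, 5 of 7 rose, with H2-Ab1 at 158 ± 25.5 CPM against 57.8 ± 21.8 CPM (adjusted p = 0.009). Without chow library 2 none of the 7 passed, and without high-fat library 1 there was 1. Among 23 acute phase genes 7 rose and none fell. Saa4 went from 203, 142 and 251 CPM to 875, 607 and 736 CPM (adjusted p = 0.000904). The rises of Orm1 and Orm2, carrier proteins of plasma, rested on high-fat library 1: Orm1 measured 253 CPM there and 35.4 and 33.5 CPM in the other high-fat livers, against 12.6 to 27.3 CPM on chow, and its change did not pass without that library (adjusted p = 0.4217). Without that library 2 acute phase genes passed.

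Collagen and stellate cell genes rose in 11 of 25 cases, and none fell, with a median of 0.63. Without chow library 2 or high-fat library 1, 7 passed, with a median of 0.42 in the latter case. Col3a1, a fibrillar collagen, went from 6.17, 3.11 and 7.93 CPM to 44.1, 16.8 and 22.1 CPM (adjusted p = 0.000165), and Col1a1 from 2.45 ± 0.571 to 6.49 ± 3.28 CPM (adjusted p = 0.0216, and 0.2234 without high-fat library 1). Col5a2 rose by 1.69 ± 0.31 (adjusted p = 6.65e-05). Acta2, a marker of activated stellate cells, measured 2.502, 3.995 and 2.651 CPM against 2.75, 1.62 and 2.33 CPM (adjusted p = 0.437). Of 12 sinusoidal endothelium markers 3 rose, with a median of 0.01, but none passed without chow library 2 and 1 passed without high-fat library 1 or 2. None of 6 cholangiocyte markers passed.

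Of 33 detoxifying enzymes 6 rose and 2 fell, beside 9.13% and 7.56% of all genes. Without chow library 1 or 2, 3 rose, where those fits called 965 and 681 genes higher in all. Cyp2b10, the classical target of the receptor CAR, fell from 48.4, 75.4 and 43.6 CPM to 5.45, 3.55 and 4.51 CPM (-3.63 ± 0.85, adjusted p = 0.00153). Its close relative Cyp2b9, a female-specific enzyme, rose from 92.3 ± 56.1 to 388 ± 126 CPM (adjusted p = 0.000612), and Por, the electron donor of all microsomal P450 enzymes, fell from 746 ± 161 to 311 ± 34.7 CPM (adjusted p = 0.00325). Of 23 female-biased liver genes 4 rose and 2 fell, beside 9.13% and 7.56% of all genes. With DESeq2, limma, the 12 libraries of the strain alone, or without chow library 1 or 2 or high-fat library 2 or 3, 2 rose. Cyp17a1, a steroid hydroxylase, fell from 129, 146 and 125 CPM to 14.4, 32.5 and 30.3 CPM (adjusted p = 5.8e-05), and Atp6v0d2, a proton pump subunit also made by macrophages, rose from 0.4996 ± 0.239 to 7.25 ± 2.35 CPM (adjusted p = 6.46e-08). Of 15 male-biased genes 2 rose, among them Hsd3b5, at 1.09 ± 0.813 CPM on chow against 10.4 ± 1.72 CPM with high fat (adjusted p = 0.0157), while PWK/PhJ males held 77.6 to 140.5 CPM. Hsd3b5 did not pass without chow library 2 (adjusted p = 0.1073), and fits of the 6 female libraries alone and of the 12 libraries of the strain alone called 8 and 5 of the 15 male-biased genes higher.

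Urea cycle and amino acid genes fell in 6 of 28 cases and rose in 2, beside 7.56% and 9.13% of all genes. Without chow library 2 they fell in 3 cases and rose in 1, where that fit called 481 genes lower and 681 higher in all. Oat, ornithine aminotransferase, went from 2174, 2114 and 1503 CPM to 541, 798 and 489 CPM (adjusted p = 8.79e-07), and Asl, argininosuccinate lyase, from 981 ± 306 to 370.0 ± 37.0 CPM (adjusted p = 7.06e-05). Cps1, which starts the cycle and was among the 5 most abundant called genes, fell from 4858 ± 1221 to 2663 ± 82.2 CPM (adjusted p = 0.0113). The other 4 were Serpina3k, a protease inhibitor (-0.79 ± 0.24, adjusted p = 0.0143), Mat1a, which makes S-adenosylmethionine (-0.68 ± 0.20, adjusted p = 0.0101), Rbp4, the plasma carrier of retinol (-0.49 ± 0.16, adjusted p = 0.0205), and Gc, the vitamin D carrier, which rose and lost its call in 7 of 13 alternatives. Each of these 5 lost its call in at least 1 alternative, with adjusted p up to 0.2068. In oxidative phosphorylation 5 of 76 genes fell and none rose, with a median of -0.10, beside 7.56% of all genes lower, and 0 fell without chow library 2 or without high-fat library 2.

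Several large falls belonged to genes outside the lists. Ren1, renin, went from 142, 133 and 78.8 CPM to 11.0, 7.77 and 10.9 CPM (-3.57 ± 0.57, adjusted p = 4.28e-06). Ptger3, a prostaglandin E2 receptor, went from 17.9 ± 3.28 to 1.82 ± 0.616 CPM (adjusted p = 9.38e-07), and Slc6a4, the serotonin transporter, from 3.69 ± 1.15 to 0.575 ± 0.136 CPM (adjusted p = 1.61e-07). Myom1, a sarcomere protein, and Cpne5, a calcium-binding copine, changed by -3.81 ± 0.54 (adjusted p = 2.63e-07) and -3.58 ± 0.59 (adjusted p = 7.92e-06). In the chow livers, Ren1 was far above the 2.68 to 9.95 CPM of PWK/PhJ males. Car3, a carbonic anhydrase abundant in fat and in male liver, rose from 21.6, 16.2 and 42.3 CPM to 332, 262 and 486 CPM (adjusted p = 6.37e-05). Car3 was the 1 called member of 6 tested in the adipose list, whose median was 0.11 and whose lowest change was -0.95, and the adipocyte genes Adipoq, Lep, Retn and Plin1 were not among the genes tested. Dbp, an output gene of the circadian clock, rose from 1.06 ± 0.516 to 14.4 ± 11.9 CPM (adjusted p = 0.0176), with 28.2 CPM in high-fat library 3 and 7.003 and 8.16 CPM in the others. In the clock list 2 of 19 genes rose, beside 9.13% of all genes, and none passed without high-fat library 3 or without chow library 3. Across the fits that kept all of the strain's female libraries, 2 to 5 rose.

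PWK/PhJ males showed fewer called genes. The same test in males called 92 genes (0.642%), 34 higher and 58 lower. Among them 31 were also called in females, 25 in the same direction. The test of the sex difference itself called 623 genes (4.35%), of which 409 (2.85%) had the higher effect in females and 214 (1.49%) the lower. With the 12 PWK/PhJ libraries fitted alone these were 406 and 133, and with total count scaling 436 and 150. Over the 2392 genes called in females, the male effect had the same sign for 59.7% and its median size was 0.17 against 0.81. The genes were chosen by the female test, which favours the larger female size. The effects correlated at r = 0.104 over these genes, which are not independent replicates.

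Neutrophil and immunoglobulin genes were among the highest in that difference. The median male effect was -0.24 for the neutrophil list and -0.96 for the immunoglobulin list. Ltf measured 0.0369, 0.734 and 0.0206 CPM in chow males and 0.0403, 0.105 and 0.0725 CPM in high-fat males, so that the effects differed by 8.86 ± 1.42 (adjusted p = 2.62e-05, and 0.3009 without male chow library 2). For Ighg2b the difference was 7.95 ± 0.89 (adjusted p = 2.64e-09). Interferon genes had a median of -0.07 in males, and 17 of 28 differed between the sexes. Ifit1, another antiviral member, stood at 3.71, 0.944 and 4.79 CPM in chow females, at 22.4, 9.77 and 10.7 CPM in chow males, and at 19.5, 22.8 and 37.9 CPM in high-fat females (difference of the effects 3.19 ± 0.71, adjusted p = 0.00339). For some genes the sexes moved apart. Orm1 fell in males from 64.2, 73.9 and 99.9 CPM to 3.08, 4.42 and 5.55 CPM (-4.19 ± 0.62, adjusted p = 1.11e-05), while in females it changed by 2.41 ± 0.57. For Cps1 the male libraries read 2386, 2845 and 2235 CPM on chow against 5286, 3808 and 3601 CPM with high fat, an effect that did not pass alone (adjusted p = 0.198) but differed from that of females (adjusted p = 0.00282).

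In the lipid lists the sexes differed for 4 of 22 droplet genes and 4 of 29 oxidation genes, each time with the lower effect in females. Cyp4a14 lay at 108, 340.5 and 301 CPM in chow males and 80.0, 250.5 and 186 CPM in high-fat males, and the high-fat females, at 164 to 295 CPM, lay within that range (difference -3.12 ± 0.65, adjusted p = 0.00178). Fitm2 and Pnpla2 differed as well (adjusted p = 0.000416 and 0.00952). For Cidec, the male change of -1.61 ± 0.65 did not pass (adjusted p = 0.387) and the difference was -2.95 ± 0.91 (adjusted p = 0.0452).

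**Figure D4:**
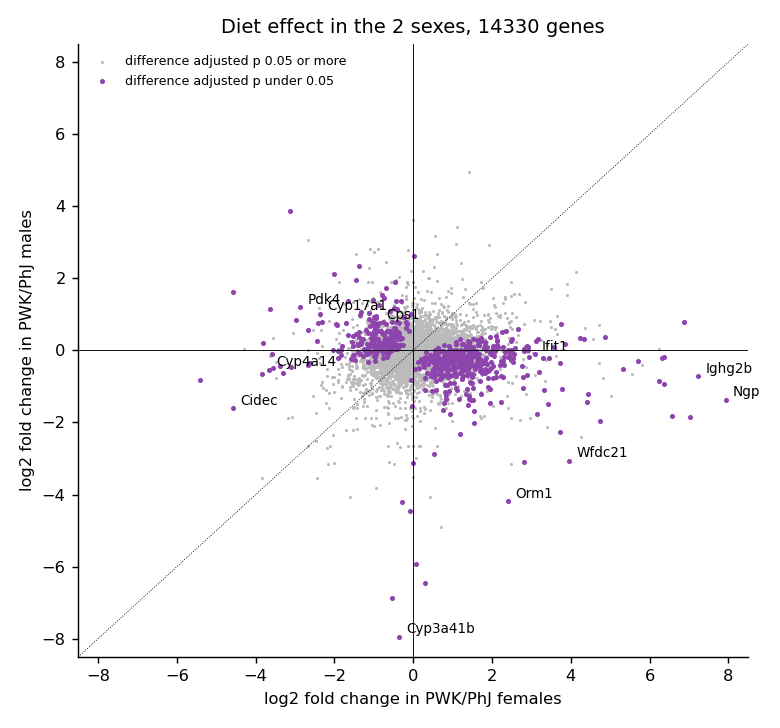
Diet effect in PWK/PhJ females (horizontal axis) against that in PWK/PhJ males (vertical axis), both as log2 fold changes, for 14330 genes. Purple points are the 623 genes whose effects differ between the sexes. Ngp and Ighg2b lie far to the right with male effects near or below 0, and Orm1 lies right of 0 in females and at -4.19 in males.

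In the females of the 8 other strains, the mean diet effect called 4058 genes (28.3%) from 48 libraries. The library labelled 129S1/SvImJ female chow 1 did not match its labelled sex and is included. Without that strain the difference from PWK/PhJ was called for 596 genes, and the count of 4058 was not recomputed without it. Of the 2392 genes called in PWK/PhJ females 1340 were also among the 4058, 1310 in the same direction. Over the 2392 genes the effects correlated at r = 0.718 and 89.9% had the same sign, with a median size of 0.21 in the other strains, and here too the choice of genes by the PWK/PhJ test favours the larger size in PWK/PhJ. The difference between PWK/PhJ and the mean of the others was called for 663 genes (4.63%), 356 (2.48%) with the higher effect in PWK/PhJ and 307 (2.14%) with the lower.

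**Figure D5:**
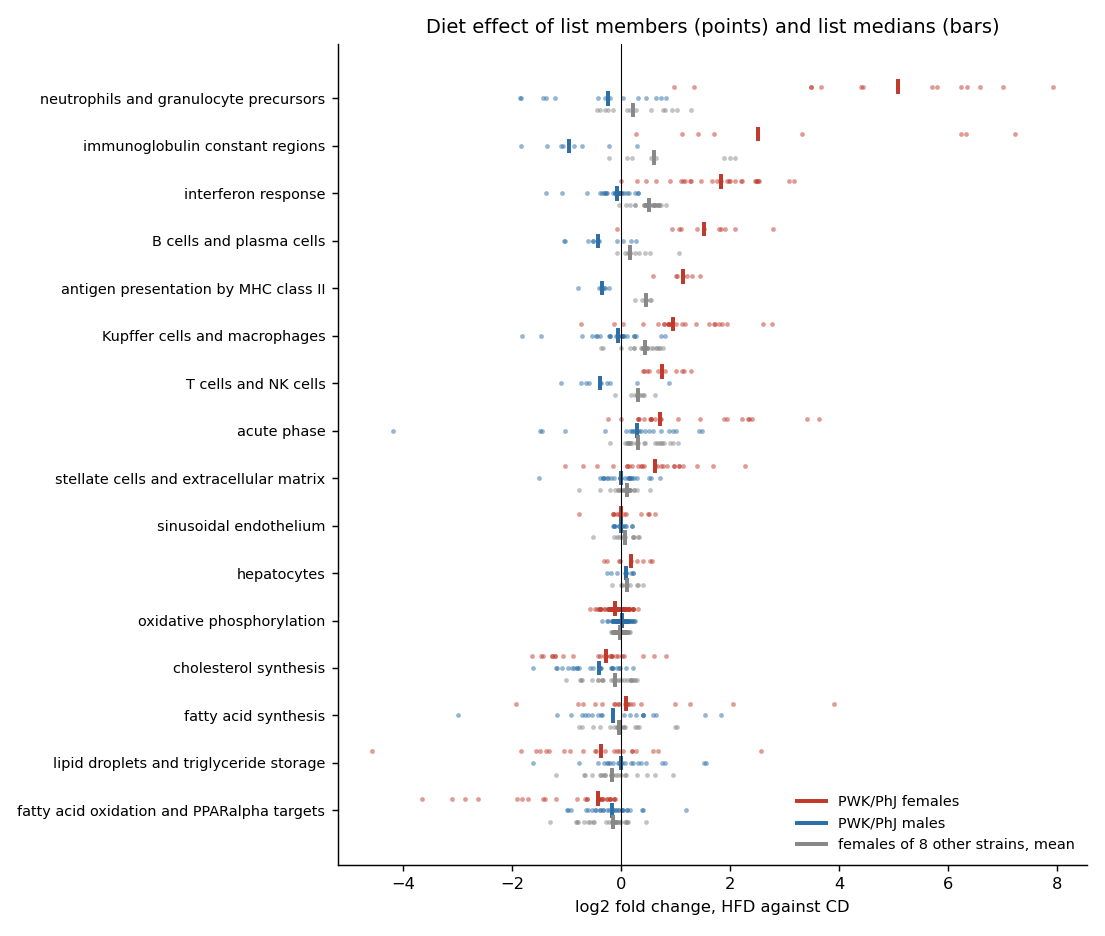
Diet effect (log2 fold change) of the members of 16 gene lists (points) with the list medians (bars) in PWK/PhJ females, PWK/PhJ males and, as a mean, the females of 8 other strains. The neutrophil median is 5.08 in PWK/PhJ females, -0.24 in the males and 0.22 in the other strains, while the medians of the fatty acid oxidation list are -0.43, -0.17 and -0.14.

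Of 14 neutrophil genes 11 had a higher effect than in the other strains, S100a8 by 6.20 ± 0.88 (adjusted p = 2.21e-06) and Mmp8, the neutrophil collagenase, by 6.25 ± 1.07 (adjusted p = 7.23e-05). For Camp and Ighg2c the fit gave no usable test of this difference (adjusted p = 1.0), and at least 1 chow group of another strain had no counts of them. Interferon genes rose in the mean of the other strains too, with 24 of 28 called and a median of 0.51. Over all genes 14.7% were called higher there. Their summed level separated the diets in C57BL/6J, CAST/EiJ and DBA/2J females and overlapped in the remaining strains. In C57BL/6J it was 501.8 to 585.7 CPM on chow and 1062 to 1243 CPM with high fat. Against the mean of the others 15 of 28 rose more in PWK/PhJ, such as Isg15 (2.57 ± 0.50 more, adjusted p = 0.00053). Isg15 ranged from -1.16 in 129S1/SvImJ to 1.76 in C57BL/6J. Macrophage genes had a median of 0.44 in the others, and 4 of 24 rose more in PWK/PhJ. Immunoglobulin constant regions had a median of 0.60 in the others, with 4 of 8 called higher, and 3 of 8 rose more in PWK/PhJ. Ighg2b and Ighg1 were higher on the high-fat diet in every other strain, mostly from under 1 CPM on chow. Their log2 ratios there were 0.38 to 3.65 and 0.57 to 3.45. On the falling side, Cidec fell by 1.18 ± 0.23 in the mean of the others and by 3.38 ± 0.72 more in PWK/PhJ (adjusted p = 0.00165). The other strains ranged from -2.75 in C57BL/6J to 0.20 in NZO/HlLtJ. Cyp4a14 fell by 2.83 ± 0.50 more in PWK/PhJ (adjusted p = 0.000131). Of its list, the 29 fatty acid oxidation genes, 14 were called lower in the mean of the others, and 4 fell more in PWK/PhJ. Oat showed -0.04 ± 0.08 in the others (adjusted p = 0.736) and differed by -1.62 ± 0.26 (adjusted p = 2.83e-05), and Slc6a4 and Ptger3 differed in like manner (adjusted p = 8.94e-07 and 5.66e-05). Unlike Oat, both were low in most other strains. Slc6a4 lay at 0.62 to 1.45 CPM in those other than CAST/EiJ, and Ptger3 at 0.29 CPM or less in those other than CAST/EiJ and WSB/EiJ. For Cyp2b10 the other strains fell by 2.78 ± 0.31, lower in 8 of 8, and no difference was called (-0.85 ± 0.84, adjusted p = 0.683). Srebf1 rose by 1.04 ± 0.13 in the others, and its difference of 1.02 ± 0.39 was not called (adjusted p = 0.122).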

How the data were processed

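Liver RNA was sequenced as mRNA libraries, 1 per mouse, per the labels' protocols. The submitters' processing notes name FastQC, STAR 2.73a and edgeR 3.24.3 with no roles, and the genome build, counter and strand setting are not given in the sources used here. The values the authors deposited were treated as raw counts, since they are whole numbers for each Ensembl gene with differing library totals, although the table's name refers to TMM, and its rows for unassigned reads were left out. Symbols were matched for 14327 of 14330 genes, and 2 genes share a symbol. Groups came from the labels. One edgeR 4.0.16 quasi-likelihood fit (R 4.3.3) of 36 group means over 106 libraries, with TMM scaling, no further filter and 70 residual degrees of freedom, gave the diet effect in PWK/PhJ females, in PWK/PhJ males, the mean effect in females of the 8 other strains, and both differences of effects. P-values were adjusted over all genes, with a threshold of 0.05. The SE is the log2 fold change divided by the square root of F. Counting intervals are exact at 95% and cover counting error only. Alternatives were DESeq2 1.42.0, limma 3.58.1, other scalings, a filter at the 25th percentile of level, fits of PWK/PhJ libraries alone, and leaving out single libraries. Named genes were the 12 largest rises and 12 largest falls whose groups did not overlap with a mean of at least 1 CPM, leaving out predicted genes and immunoglobulin variable segments, the 5 most abundant called genes, up to 4 called members per list, the 6 highest and 6 lowest in each difference, and a panel. The members and the 36 gene lists were chosen with earlier results of these data known. Scripts were tested on simulated data.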

Additional observations from a re-analysis of the deposited data

Results flagged for a closer look

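The diet effect differed between PWK/PhJ females and males for 623 genes and between PWK/PhJ females and the mean of the other strains' females for 663, by a test of the difference itself. Against males, the female effect was higher by 9.31 on the log2 scale for Ngp, 8.86 for Ltf, 8.41 for Camp and 7.32 for Cd177, all genes of neutrophils, and by 7.95 for Ighg2b. Cyp3a41b, a P450 enzyme with near-identical copies, differed by 7.59. The female effect was lower for Gtpbp4-ps1, a pseudogene (-6.99), Itga2, an integrin (-4.12), Pdk4 (-4.05), Myom1 (-4.01), Cpne5 (-3.48) and Pitx3, a transcription factor (-3.42).

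Against the other strains, the effect was higher by 6.91 for Ngp, 6.25 for Ltf, 6.25 for Mmp8, 6.20 for S100a8, 6.16 for Acod1 and 5.61 for S100a9. It was lower for Cpne5 (-3.44), Acot5 (-3.42), Cidec (-3.38), Ptger3 (-3.25), Ren1 (-2.95) and Myom1 (-2.91). The value for Acot5 depends on a prior count, since WSB/EiJ chow females had no counts of it. Acot5 fell from 6.81 to 0.67 CPM in CAST/EiJ, and females of the remaining strains held at most 0.45 CPM on either diet. Ptger3 was at most 0.29 CPM on either diet outside PWK/PhJ, CAST/EiJ and WSB/EiJ.

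Several sex differences lost their call in some alternatives (adjusted p by edgeR, or limma for Pitx3). Itga2 lost it in 9 of 17 (adjusted p up to 0.5092), Pitx3 in 5 of 17 (0.2049), Pdk4 in 4 of 18 (0.1864) and Cyp3a41b in 3 of 17 (0.06528). Gtpbp4-ps1 and Cpne5 lost it in 2 of 17 each (0.1459 and 0.111). Ngp and Ltf lost it in 1 of 17, without male chow library 2 (0.2005 and 0.3009).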

How the results depend on the processing

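Across the alternatives the diet effect in PWK/PhJ females was called for 1774 to 2513 genes when all libraries of the strain's females were kept, and for 1162 to 2105 when 1 was left out, with 1162 without chow library 2 and 1328 without high-fat library 1. The sex difference was called for 389 genes when low genes were left out, which tests fewer genes, and for 208 to 785 when 1 library was left out: 208 without female chow library 2, 321 without female high-fat library 1, 407 without male high-fat library 1 and 268 without male high-fat library 2. The difference from other strains was called for 217 to 579 genes when 1 library was left out: 217 without chow library 2, 335 without high-fat library 1, 420 without high-fat library 2 and 416 without high-fat library 3. It was called for 596 without 129S1/SvImJ, a strain with 1 library that did not match its labelled sex. Why single libraries move these counts was not tested. Of 144 called results on named genes, 87 kept their call under every alternative run and 0 reversed. Reversals concerned uncalled genes, over fits without 1 library: Hbb-bs ranged from -0.10 (without high-fat library 1) to 1.31, Itga2 from -2.49 to 0.11 (without chow library 2), Scd1 from -0.28 (without chow library 2) to 0.93, with -0.098 without chow library 1, and Fasn from -0.15 (without high-fat library 3) to 0.30, with -0.042 without chow library 2. No paired analysis was possible because the labels carry animal numbers and no replicate numbers shared across groups. With 3 mice a group, and under 1 CPM on chow for many immune genes, the size of those changes is imprecise.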

Other observations

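Over all genes 9.13% were called higher and 7.56% lower in PWK/PhJ females. In the unfolded protein and integrated stress response 2 of 21 genes rose and none fell. Without chow library 1 or any single high-fat library 1 rose, and with the 6 female libraries fitted alone 4 did. In the glucose list 3 of 23 rose and 1 fell, but without chow library 2 these were 1 and 0. In the growth hormone list 2 of 11 rose and 1 fell, and without chow library 2 none rose, while with limma or PWK/PhJ libraries fitted alone none fell. In the cell cycle list 5 of 24 rose and 1 fell, with a single member higher when chow library 2 was left out. Across the fits that kept all of the strain's female libraries, 0 to 7 rose.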
